A study of Homo sapiens with 18 samples.

Results

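The comparison described here set dye-retaining tumor cells of 143B against dye-retaining tumor cells of MNNG/HOS (MNNG below), both established human osteosarcoma cell lines. The arrays were chosen by their titles, with no use of measured values: 3 arrays of 143B (143B_High) and 4 arrays of MNNG (MNNG_High), 7 of the 18 arrays in the series. Both lines had been transduced with the green fluorescent protein ZsGreen, labelled with PKH26, a membrane dye that each cell division dilutes, and grown as orthotopic bone tumors in mice. The High arrays hold 150000 sorted cells per sample that still carried much of the dye, which the labels call tumor-initiating cells. Dye-diluted (Low) cells, 700000 per sample, were sorted from the same tumors. Values of 5 143B_Low and 4 MNNG_Low arrays are given below only for reference, as are those of 2 arrays of MNNG lung metastases where stated. All of these arrays also enter the estimate of the spread. The MNNG_High arrays come from 4 tumors, MNNG-1231 and MNNG-1232 followed by MNNG-1233 and MNNG-1235. The 143B_High arrays come from a single tumor and from 2 samples whose titles each join 2 tumor numbers, 51&52 and 54&55. They are read here as pools of 2 tumors, since the series text says that samples were combined where RNA was scarce. The tumors are replicates of 1 line each, so no p-value here measures the spread between patients. The limma p-values use 1 spread per gene, estimated over all 18 arrays in their 5 groups. That estimate takes in Low arrays of the same tumors, lung arrays and pools, so it is not the spread of the High tumors alone. Array values below are given in the order single tumor, 51&52, 54&55 for 143B_High and in the order of the tumor numbers above for MNNG_High.

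The lines share an origin. Both descend from HOS, a line from a human osteosarcoma that formed few tumors in mice. MNNG/HOS was obtained by treating HOS with the alkylating carcinogen MNNG and carries a fusion of TPR with the receptor tyrosine kinase gene MET. 143B was obtained from a HOS subclone lacking thymidine kinase activity by transformation with an activated ras oncogene, and it invades and spreads from bone. Ras proteins pass signals from growth factor receptors to the MAP kinase cascade, which drives expression of AP-1 and ETS family transcription factors, D-type cyclins and matrix proteases, together with feedback inhibitors of the cascade.

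The 3 143B_High arrays were close to each other, with pairwise Pearson correlations over all probe sets of 0.991 to 0.992. These were 0.956 to 0.989 within MNNG_High and 0.933 to 0.970 between the lines. The interquartile range of the log2 signal over all probe sets was 3.29 ± 0.04 (SD, n = 3) in 143B_High and 2.97 ± 0.19 (SD, n = 4) in MNNG_High (exact permutation test, two-sided, p = 0.0571, adjusted p = 0.229 over 4 array measures, where 0.0286 was the smallest p the design allows). MNNG-1231 and MNNG-1233 had the narrowest signal, 2.84 and 2.76, and MNNG-1232 and MNNG-1235 had 3.07 and 3.18. The groups did not overlap, since the lowest 143B_High value was 3.26. The 3' minus 5' log2 signal averaged 1.64 in 143B_High and 1.13 in MNNG_High for ACTB (adjusted p = 0.229, exact permutation test). For GAPDH it was 0.76 and 0.59 (adjusted p = 0.419, same test). Hybridization controls averaged 11.93 and 12.19 (adjusted p = 0.629, same test), with MNNG-1233 at 13.04. All 143B arrays carry 1 tag of the sample descriptions and all MNNG_High arrays another, so any difference that goes with the tag cannot be told apart from the difference between the lines. The defining mesenchymal gene VIM read 14.44 to 14.65 on all 7 arrays, while the osteoblast genes SP7 and ALPL lay under the median of the table, 5.36, on all 7. Values under 5.36 are treated as near background here, since no detection call was used, and a fold against such a group is uncertain in size. Probe sets said to be over background reached 5.36 on at least 3 of the 18 arrays, so their means in High cells can still lie under it.

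Of 14418 genes tested, 5203 differed between 143B_High and MNNG_High at an adjusted p under 0.05 (36.1%, limma with Benjamini-Hochberg adjustment over all genes tested). Of these, 3081 were higher in 143B_High (21.4% of the genes tested) and 2122 were lower (14.7%). In Low cells, read below for reference, 14.4% of the genes tested were higher in 143B and 14.5% lower. Over 2-fold in High cells, 1236 genes were higher (8.57%) and 403 lower (2.8%), and over 16-fold, 24 were higher and 9 lower. The 3 143B_High values lay all above or all below the 4 MNNG_High values for 6060 genes (42%), of which 4616 were called. The median difference over all genes tested was 0.01 on the log2 scale. Bringing the arrays to 1 distribution a second time moved that median to -0.11, and 3882 genes were then called, 1836 higher and 2046 lower (47.3% higher, against 59.2% as deposited). Aligning array medians gave 5021 calls, of which 68.0% were higher. A fit of the 7 High arrays alone gave 4110 calls, 2757 higher and 1353 lower. The count also depended on the arrays: it was 3465 without pool 51&52, 3305 without MNNG-1231 and MNNG-1233 together, and 1579 with the single tumor as the only 143B_High array. In sorted bulk samples a lower signal from fewer cells of a type and from less RNA per cell cannot be told apart.

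The gene with the largest difference was MMP1, which encodes interstitial collagenase, the enzyme that opens the fibrillar collagen helix. Its log2 signal was 12.72, 13.85 and 12.78 on the 143B_High arrays and 3.15, 3.56, 3.41 and 3.66 on the MNNG_High arrays. All 143B_High arrays were near the top of the scale, and all MNNG_High arrays lay under the median of the table. The difference was 9.67 ± 0.32 (log2, SE of the limma fit, adjusted p = 4.55e-13). In Low cells it was 9.02 ± 0.28, so MMP1 marked the line in both dye fractions.

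EPB41L3, which encodes protein 4.1B, a link between membrane proteins and the actin cytoskeleton, read 8.79, 9.51 and 9.52 in 143B_High and 3.38, 3.45, 3.23 and 3.06 in MNNG_High. The groups were far apart, with a difference of 5.99 ± 0.23 (adjusted p = 1.82e-12, limma), and all 3 of its probe sets over background were higher in 143B_High, by 4.64 to 5.99. CCND2, which encodes cyclin D2, read 9.44, 9.69 and 9.96 against 3.73, 4.46, 3.92 and 4.33. Its difference was 5.59 ± 0.20, and all MNNG_High arrays lay under the median of the table. RTN1, a reticulon of the endoplasmic reticulum, was 8.47, 8.69 and 8.66 against 3.44, 3.54, 3.46 and 3.90, a difference of 5.02 ± 0.14.

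The next genes in order of size were FRMD3, CHRNA1, AFF3, TMEM47 and PDZRN3, higher by 4.89 ± 0.35, 4.83 ± 0.22, 4.82 ± 0.33, 4.69 ± 0.20 and 4.62 ± 0.46. CHRNA1 encodes the alpha subunit of the muscle acetylcholine receptor. It read 9.51, 10.19 and 10.15 in 143B_High and 4.87 to 5.30 in MNNG_High. NTRK2, the receptor tyrosine kinase for brain-derived neurotrophic factor, read 7.48, 8.60 and 8.39 against 3.19, 4.12, 3.32 and 3.61 (4.60 ± 0.29). The pools stood about 1 log2 unit above the single tumor for NTRK2, and for PDZRN3 the gap was wider, with 6.89 in the single tumor against 8.74 and 8.69 in the pools.

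BCL2A1, a survival protein of the BCL2 family, was higher by 4.56 ± 0.27, the cancer-testis antigen gene PASD1 by 4.50 ± 0.17, and COL8A1, a short-chain collagen, by 4.46 ± 0.24. TIE1, a receptor tyrosine kinase usually found on endothelium, read 9.20, 9.06 and 9.0 against 4.53, 5.09, 4.88 and 4.18. Its difference was 4.41 ± 0.18, while the endothelial genes CDH5, TEK, KDR, EMCN and ERG lay under the median of the table on all 7 arrays. GPM6B, a membrane glycoprotein of the proteolipid family, closed the group of 15 genes with the largest increase at 4.35 ± 0.18. All 15 were called with the same direction in Low cells.

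**Figure D1:**
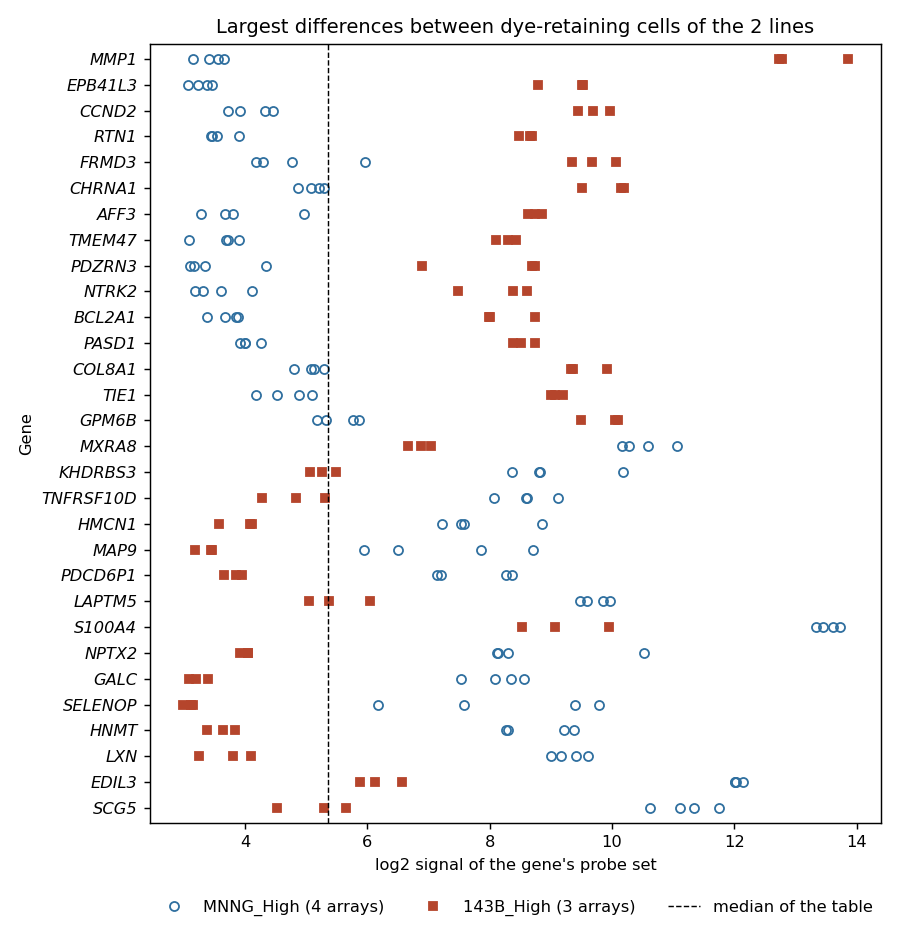
The plot of single arrays gives the log2 signal (x axis) of the 15 genes with the largest positive and the 15 with the largest negative difference (y axis), with filled squares for the 3 143B_High arrays, open circles for the 4 MNNG_High arrays and a dashed line at the median of the table, 5.36. No gene shown had overlapping groups, since only such genes were chosen.

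On the other side, SCG5 had the largest decrease. It encodes 7B2, a secreted chaperone of the prohormone convertase PC2. Its signal was 5.64, 5.29 and 4.52 in 143B_High and 10.63, 11.75, 11.33 and 11.10 in MNNG_High. The groups were far apart, with 2 of the 3 143B_High arrays under the median of the table, and the difference was -6.05 ± 0.33 (adjusted p = 2.61e-10, limma).

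EDIL3, a secreted matrix protein that binds integrins, read 6.56, 6.13 and 5.87 against 12.03, 12.01, 12.01 and 12.14. It was among the brighter genes of MNNG_High, and its difference was -5.86 ± 0.49. Its other probe set differed by -0.96, with means of 4.01 and 4.97, both near background, so a large difference could not be read from it. LXN, which encodes latexin, an inhibitor of carboxypeptidases, was 4.10, 3.25 and 3.80 against 9.0, 9.60, 9.17 and 9.41 (-5.58 ± 0.20). HNMT, the enzyme that methylates histamine, differed by -5.18 ± 0.26, and GALC, the lysosomal galactosylceramidase, by -4.90 ± 0.22.

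SELENOP, the plasma carrier of selenium, varied widely among the MNNG tumors. It read 6.18, 9.40, 9.79 and 7.58 there and 2.99, 3.14 and 3.12 in 143B_High. The groups still did not overlap, and the difference was -5.15 ± 0.76 (adjusted p = 5.11e-05, limma). NPTX2, a neuronal pentraxin, was -4.76 ± 0.57, with MNNG-1233 at 10.53 and the other MNNG_High arrays at 8.12 to 8.29. S100A4, a calcium-binding protein linked to cell motility and metastasis, was bright in both lines. It read 9.96, 8.53 and 9.06 in 143B_High and 13.45, 13.73, 13.60 and 13.33 in MNNG_High, a difference of -4.35 ± 0.45. LAPTM5, a lysosomal membrane protein best known from blood cells, differed by -4.24 ± 0.26, and the remaining genes of the 15 were MAP9 (-3.89), HMCN1 (-3.88), TNFRSF10D, a decoy receptor of TRAIL (-3.80), KHDRBS3 (-3.77), MXRA8 (-3.66) and the pseudogene PDCD6P1 (-3.93), whose signal may come from its parent gene. All 15 were called in the same direction in Low cells.

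The promoter windows of the leading genes in each direction are shown because AP-1 and ETS factors act at the end of the MAP kinase cascade. They come from RefSeq (GRCh38.p14), run 250 bases before to 50 bases after the annotated gene start, and are printed in the direction of the gene. MMP1 was not among the promoters used, so EPB41L3 (chr18:5628942-5629241, minus strand) and SCG5 (chr15:32641460-32641759, plus strand) stand for the higher and the lower group.
EPB41L3: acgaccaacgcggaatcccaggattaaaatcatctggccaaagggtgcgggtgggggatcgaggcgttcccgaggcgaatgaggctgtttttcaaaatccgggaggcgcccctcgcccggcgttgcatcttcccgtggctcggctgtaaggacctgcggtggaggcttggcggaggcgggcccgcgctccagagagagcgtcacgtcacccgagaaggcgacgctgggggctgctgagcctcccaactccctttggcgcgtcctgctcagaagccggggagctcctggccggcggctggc
SCG5: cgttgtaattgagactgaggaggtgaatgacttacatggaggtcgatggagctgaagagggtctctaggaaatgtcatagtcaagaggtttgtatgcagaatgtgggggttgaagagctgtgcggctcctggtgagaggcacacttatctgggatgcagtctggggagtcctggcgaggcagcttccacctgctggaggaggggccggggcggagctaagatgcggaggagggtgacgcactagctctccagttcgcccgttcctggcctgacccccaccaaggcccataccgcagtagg
The letters searched were TGANTCA for AP-1, with N any base, and CCGGAA for ETS factors. Neither window holds them on either strand, so nothing is in capitals. Shorter letters such as GGAA, which both windows hold, were not counted. The AP-1 letters were in 5.09% of 1001 promoters of genes over 2-fold higher, in 6.21% of 306 promoters of genes over 2-fold lower, in 5.01% of 11513 promoters of genes tested and in 7.76% of all 27305 promoters. The letters CCGGAA were in 23.6%, 14.7%, 27.0% and 17.6% of the same sets. These shares are descriptions of letters and carry no test.

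Genes that record the origin of the lines were read next. HRAS, a ras family member, read 9.56, 9.36 and 9.17 in 143B_High and 7.43, 7.56, 7.93 and 7.72 in MNNG_High, and was higher by 1.70 ± 0.15 (adjusted p = 1.82e-07, limma). TK1, the cytosolic thymidine kinase whose activity the parent of 143B lacks, read 7.14, 7.03 and 7.04 against 8.28, 8.16, 8.27 and 8.18. The groups were tight and apart, with a difference of -1.15 ± 0.14, and the transcript stayed well over background in 143B_High. MET read 9.68, 9.78 and 9.94 against 10.11, 10.37, 9.53 and 11.05, and the groups overlapped (-0.47 ± 0.26, adjusted p = 0.167, limma). Without MNNG-1233 the MET difference was -0.71 and was called. The other 2 probe sets of MET over background were called lower (-0.80 and -0.72). The second had means under 5.36, at 4.61 in 143B_High and 5.33 in MNNG_High. The mean over probe sets was called too (-0.51, adjusted p = 0.00279, limma). TPR, its fusion partner, was at the edge of the threshold (-0.48 ± 0.18, adjusted p = 0.0492, limma), its groups overlapped, and 2 of its 4 probe sets were lower. Leaving out any 1 of these 7 arrays except MNNG-1233 took TPR out of the calls, with an adjusted p of 0.0599 to 0.169 (limma). CDKN2A, the cell cycle inhibitor locus, read 5.37 to 5.80 on all 7 arrays, close to background, and was not called.

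Among genes whose transcription follows RAS-MAPK signalling, 14 of 22 tested members were higher and 2 lower, with a median difference of 0.90. Over all genes tested 21.4% were higher and 14.7% lower, with a median of 0.01. The High counts of the lists below stand against the same shares. The list's median signal per array was 9.32, 9.50 and 9.31 in 143B_High and 8.15, 8.61, 8.27 and 8.58 in MNNG_High, with no overlap. FOSL1, an AP-1 subunit, was 10.22, 10.62 and 10.12 against 8.54, 8.57, 8.37 and 8.16 (1.91 ± 0.21, adjusted p = 1.53e-06, limma). EPHA4, an ephrin receptor, was higher by 1.78 ± 0.20, CCND1, which encodes cyclin D1, by 1.61 ± 0.24, and the ETS factor ETV5 by 1.49 ± 0.17. Feedback inhibitors of the cascade were among the 14, named after their values were seen: DUSP4, DUSP5, DUSP6, SPRED1, SPRED2, SPRY1 and SPRY4, by 0.70 to 1.47. The 2 members that were lower encode secreted ligands, EREG (-0.62) and LIF (-1.16). In Low cells 13 were higher and 4 lower, with a median of 0.65.

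Of 28 receptor tyrosine kinase and ras genes tested, 9 were higher and 3 lower, with a median of 0.13. The median was -0.02 after the second quantile normalization, which moved the median of all genes by about as much. The lower genes numbered 1 without pool 51&52 or MNNG-1231 and 5 without MNNG-1235. Single receptors differed strongly in both directions. EGFR read 9.71, 9.71 and 9.47 against 7.28, 7.14, 6.67 and 7.76 (2.42 ± 0.24), but of its 8 probe sets over background 3 were higher and 2 lower. The PDGF receptors went opposite ways: PDGFRA was higher by 2.01 ± 0.40, and PDGFRB, at 5.88, 5.70 and 5.45 against 7.78, 7.78, 8.27 and 7.55, was lower by 2.17 ± 0.24 in size.

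Among 17 tested genes of thymidine and nucleotide metabolism 6 were higher and 2 lower, with a median of 0.47. RRM1, the large subunit of ribonucleotide reductase, read 11.31, 11.35 and 11.42 against 10.09, 9.93, 9.75 and 9.96 (1.43 ± 0.16), and UPP1, uridine phosphorylase, was higher by 0.65 ± 0.15. TK1 was 1 of the 2 lower genes. The list had 3 higher and 3 lower without MNNG-1231 and MNNG-1233.

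Matrix genes differed in both directions. Of 28 tested collagen and matrix genes 8 were higher and 11 lower in 143B_High, with a median of -0.66, and in Low cells 9 were higher and 12 lower. The excess of lower genes was lost after the second quantile normalization (8 and 8) and without MNNG-1231 and MNNG-1233 (9 higher and 7 lower). Single arrays moved it too: the lower genes numbered 6 without pool 51&52, 5 without pool 54&55, 7 without MNNG-1231 and 6 without MNNG-1233, with 8 higher each time. The lower genes included fibrillar collagens: COL5A1 read 8.82, 7.47 and 8.09 against 11.05, 10.99, 10.99 and 10.86 (-2.85 ± 0.28, adjusted p = 6.03e-07, limma). COL1A1, the main collagen of bone, named after its value was seen, read 11.86, 9.54 and 10.42 against 13.74, 13.71, 13.99 and 13.88. The MNNG tumors were nearly identical in COL1A1 and the 143B samples spread over more than 2 log2 units (-3.23 ± 0.84, adjusted p = 0.00646, limma). With the single tumor as the only 143B_High array COL1A1 was not called (-1.97). The higher genes included COL8A1, already described, the thrombospondin THBS2 at 9.86, 10.49 and 10.68 against 6.44, 6.58, 6.55 and 6.26 (3.89 ± 0.24), and the transmembrane collagen COL13A1 (1.70 ± 0.22). When probe sets that can cross-hybridize (_x_at and _s_at) were left out, the median of the list was 0.10.

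Among 19 matrix proteases and their inhibitors 8 were higher and 4 lower, all of them over 2-fold. Besides MMP1 the higher genes were MMP10, another metalloprotease (2.95 ± 0.43), and, named after their values were seen, MMP9, ADAMTS1 and ADAM19, together with the plasminogen system. PLAU, urokinase, read 11.14, 11.30 and 11.09 against 8.55, 8.37, 8.46 and 8.64 (2.67 ± 0.18, adjusted p = 3.73e-09, limma). Its receptor PLAUR was higher by 1.95 ± 0.16, and the groups of both genes were far apart with SDs of 0.11 to 0.15. The metalloprotease inhibitors TIMP1 and TIMP2 were lower. TIMP1 read 10.57, 10.29 and 10.12 against 11.54, 12.06, 11.82 and 11.67 (-1.44 ± 0.18), and TIMP2 was -2.65 ± 0.48. MMP2 (-1.65) and MMP13 (-1.51) were the other lower genes. In Low cells 7 were higher and 5 lower.

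Integrins and laminins, the cell's receptors for matrix and their basement membrane ligands, had 6 higher and 3 lower of 24, near the shares over all genes, and 1 lower when pool 51&52, MNNG-1231 or MNNG-1233 was left out. LAMA1, the laminin alpha 1 chain, stood out at 8.38, 8.67 and 8.85 against 4.05, 5.03, 4.81 and 3.92 (4.18 ± 0.28). ITGA6, which pairs with laminin-binding beta chains, was higher by 1.95 ± 0.28, ITGB5 by 1.29 ± 0.16 and the laminin chain LAMB3 by 1.48 ± 0.34. Of 16 cadherins and regulators of epithelial to mesenchymal transition 4 were higher and 3 lower, and the median was near 0 (it was -0.14 after the second quantile normalization). The members split: CDH2, N-cadherin, read 9.98, 10.30 and 10.08 against 8.32, 8.15, 8.07 and 8.93 (1.75 ± 0.23) and TWIST2 was higher by 1.09 ± 0.16, while ZEB2 was -2.08 ± 0.32 and the protocadherin PCDH18 -1.85 ± 0.36.

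Of 15 antigen presentation genes tested 6 were higher in 143B_High, all of them over 2-fold (8.57% of all genes tested were), 1 was lower and 8 were not called. The summed signal of the list overlapped between the groups, at 14.28 to 14.43 against 13.93 to 14.38. PSMB9, an immunoproteasome subunit, read 8.44, 8.87 and 8.57 against 6.41, 5.50, 6.64 and 5.43 (2.63 ± 0.27, adjusted p = 8.14e-07, limma). PSMB8, a second such subunit, was higher by 1.49 ± 0.16, and the peptide transporter subunits TAP1 and TAP2 by 1.32 ± 0.16 and 1.44 ± 0.15. All of these were called in Low cells too, where 7 of the 15 were higher and none lower. Beta-2-microglobulin, B2M, did not pass the test (-0.08).

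Interferon-stimulated genes did not share a direction. Of 21 tested, 5 were higher and 7 lower, with a median of -0.30, which was 0.05 without MNNG-1231 and MNNG-1233. The counts were 3 higher and 5 lower without pool 51&52 and 3 and 4 without pool 54&55. ISG20, an exonuclease, read 8.64, 8.56 and 8.23 against 5.87, 6.10, 5.91 and 6.51 (2.38 ± 0.30), and the transcription factor IRF7 was higher by 1.28 ± 0.24 and OAS3 by 0.73 ± 0.14. IFI44 was lower, at 5.03, 4.35 and 4.37 against 7.20, 6.52, 6.27 and 6.69 (-2.09 ± 0.31), as was IFITM1, a membrane protein that restricts viral entry (-1.83 ± 0.38, named after its value was seen). Chemokines and cytokines had 5 higher and 2 lower of 20, with 3 higher when the single tumor, pool 51&52 or MNNG-1231 was left out. TNFRSF11B, osteoprotegerin, the decoy receptor for RANKL, was the largest at 9.65, 9.59 and 10.27 against 5.62, 5.90, 4.88 and 8.21 (3.68 ± 0.65). MNNG-1235 stood nearer to 143B in it than the other MNNG tumors. The monocyte attractant CCL2 was higher by 1.92 ± 0.29 and the chemokine receptor CXCR4 by 1.91 ± 0.32, while IL1R1, the interleukin 1 receptor, was lower (-2.17 ± 0.50).

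Few osteoblast lineage genes could be read: 8 of the 18 on the array, SP7, ALPL and IBSP among them, lay under the median of the table on all 7 arrays. Of 10 tested, 3 were higher and 1 lower. BMP2, a bone-inducing ligand, was 10.19, 9.65 and 9.35 against 5.48, 5.29, 5.77 and 5.56 (4.21 ± 0.28, adjusted p = 3.75e-09, limma). SPP1, osteopontin, was 8.99, 8.20 and 8.13 against 3.91, 4.74, 3.62 and 6.60 (3.72 ± 0.60), with MNNG-1235 again the nearest MNNG tumor. RUNX2, the master transcription factor of osteoblasts, was lower, at 8.64, 8.51 and 8.82 against 9.91, 10.21, 10.49 and 9.77 (-1.44 ± 0.24).

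In the TGF-beta and BMP list 9 of 31 were higher and 5 lower (21.4% and 14.7% of all genes tested), with 3 lower without pool 51&52. Beside BMP2, its extracellular antagonist NOG was higher, at 9.08, 9.31 and 9.35 against 6.45, 6.69, 5.72 and 7.36 (2.69 ± 0.34). BMP7 was higher by 1.55 ± 0.22 in the probe set used, although 1 of its 4 probe sets was lower. GDF15, a stress-induced ligand, was -2.90 ± 0.33. Of 26 Wnt genes 10 were higher and 3 lower, with a median of 0.39 (0.17 after the second quantile normalization, with 6 higher). The lower Wnt genes numbered 1 without pool 51&52 and 5 without MNNG-1235. The receptor FZD3 read 7.50, 7.69 and 7.65 against 4.70, 4.85, 5.42 and 5.74 (2.43 ± 0.24), and FZD2 was higher by 1.23 ± 0.15. The ligand WNT5A was higher by 1.57 ± 0.21 and the secreted inhibitor WIF1 by 2.47 ± 0.21. Notch genes had 3 higher and 3 lower of 18, near the shares over all genes tested. The ligands JAG1 and DLL1 were higher by 1.28 ± 0.31 and 1.26 ± 0.28, and DTX3, a member of the Deltex family, was lower (-1.30 ± 0.17).

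HOX genes, which fix positional identity along body and limb, were higher or not called: 8 of 22 were higher and none lower, and 4 were higher and 1 lower after the second quantile normalization. The count of higher HOX genes was 4 without the single tumor, 4 without pool 51&52 and 5 without pool 54&55. HOXB8 read 8.08, 8.25 and 8.48 against 4.94, 5.63, 5.16 and 5.63 (2.93 ± 0.24, adjusted p = 5.97e-08, limma). The limb genes HOXD13 and HOXD10 were higher by 2.31 ± 0.20 and 1.66 ± 0.20. At the imprinted genes 7 of 17 were higher and 3 lower, against 21.4% and 14.7% of all genes tested. CDKN1C, a cyclin-dependent kinase inhibitor, read 10.01, 9.92 and 10.06 against 7.06, 7.52, 7.12 and 7.67 (2.65 ± 0.21), and NAP1L5 was higher by 1.56 ± 0.24. MEST read 6.93, 5.60 and 6.41 against 9.74, 10.44, 9.74 and 9.66 (-3.58 ± 0.42), and DIRAS3, a ras-related growth inhibitor, was -2.98 ± 0.25.

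Of 21 markers used for stem cells and tumor-initiating cells 7 were higher and 3 lower, against 21.4% and 14.7% of all genes tested. Their median difference was -0.12, and 10 of the 21 differences were above 0. PROM1, which encodes CD133, read 7.23, 6.73 and 7.32 in 143B_High and 3.18, 3.41, 3.76 and 2.88 in MNNG_High (3.79 ± 0.20, adjusted p = 2.51e-10, limma). LIN28B, an inhibitor of let-7 processing, was 8.26, 8.08 and 7.94 against 5.08, 4.50, 3.81 and 4.50 (3.62 ± 0.38). CD24 was higher by 2.30 ± 0.31, and SOX2, named after its value was seen, read 9.12, 9.51 and 9.59 against 7.09, 7.17, 7.02 and 8.45 (1.97 ± 0.31). NES, the intermediate filament nestin, was lower, at 6.92, 5.55 and 6.33 against 9.03, 9.62, 9.53 and 9.57 (-3.17 ± 0.31). Each of these 5 genes was called in the same direction in Low cells. NANOG, LIN28A, NGFR, ALDH1A1 and LEPR lay under the median of the table on all 7 arrays. Of the 20 genes of the cancer-testis list on the array only 3 could be tested. The list does not hold PASD1, described above. PRAME was higher by 0.54 ± 0.13 and TEX101 lower by 0.51 ± 0.16 in size, the latter not called without the single tumor, pool 54&55 or MNNG-1231 (-0.46, -0.48 and -0.45).

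Proliferation genes were higher in 143B_High. Of 26 DNA replication genes 19 were higher in 143B_High and none lower, with a median of 0.86. The median signal of the list was 9.50, 9.45 and 9.38 in 143B_High and 8.80, 8.60, 8.60 and 8.83 in MNNG_High. CDC6, a loader of the replicative helicase, read 7.80, 8.14 and 7.81 against 6.18, 6.54, 6.45 and 6.37 (1.53 ± 0.14, adjusted p = 1.6e-07, limma). MCM3, a helicase subunit, was higher by 1.50 ± 0.14, the flap endonuclease FEN1 by 1.34 ± 0.15 and the clamp loader subunit RFC4 by 1.23 ± 0.13. In Low cells 12 were higher and none lower, with a median of 0.44.

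Of 28 mitosis genes 18 were higher in 143B_High and 1 was lower, with a median of 0.78. In Low cells 3 were higher and 4 lower, with a median of -0.01, near the shares over all genes in Low cells (14.4% and 14.5%). The median signal of the list was 9.12, 9.03 and 9.0 in 143B_High and 8.89, 8.69, 7.98 and 8.76 in MNNG_High, with MNNG-1233 the lowest, while it was 8.34 to 9.16 in 143B_Low and 8.93 to 9.30 in MNNG_Low. DLGAP5, a spindle protein, was 9.95, 9.66 and 9.80 against 8.87, 8.95, 8.42 and 9.10 in High cells (0.97 ± 0.16, adjusted p = 0.000163, limma), and in Low cells its difference was 0.20 ± 0.14. AURKB, a kinase of chromosome segregation, was higher by 1.46 ± 0.17, the checkpoint kinase gene BUB1 by 1.28 ± 0.16 and CENPF, a kinetochore protein, by 1.71 ± 0.30. The other probe set of BUB1 read near background, with means of 4.54 and 4.95, and did not differ in that direction (-0.41). In the fit without the tumor as a block no mitosis gene passed the test of whether the line difference differed between High and Low cells: the unadjusted p was 0.00077 for AURKB, 0.00093 for BUB1 and 0.002 for DLGAP5. With the tumor as a random block, over the bone arrays, 2 of the 28 passed, CDCA8 (0.93) and AURKA (0.95), both named after their values were seen. The list's median signal was lower in High than in Low cells of each of the 4 MNNG tumors, and 3 of the 4 MNNG_Low arrays (all but MNNG-1231) carry another tag of the sample descriptions than MNNG_High. BIRC5, survivin, was the 1 lower gene (-1.10 ± 0.28), and it was also lower in Low cells. Without MNNG-1231 and MNNG-1233, the arrays of narrowest signal, 14 mitosis and 18 replication genes were higher, and after the second quantile normalization 11 and 12. The part of the narrow signal of those arrays in these counts was not tested.

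Cell cycle regulators had 11 higher and 1 lower of 24, and 7 higher without pool 51&52. CCND2 and CDKN1C, described above, were the largest, and CCNE1, cyclin E1, read 9.40, 9.28 and 9.09 against 8.16, 8.16, 8.22 and 8.12 (1.09 ± 0.16).

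**Figure D2:**
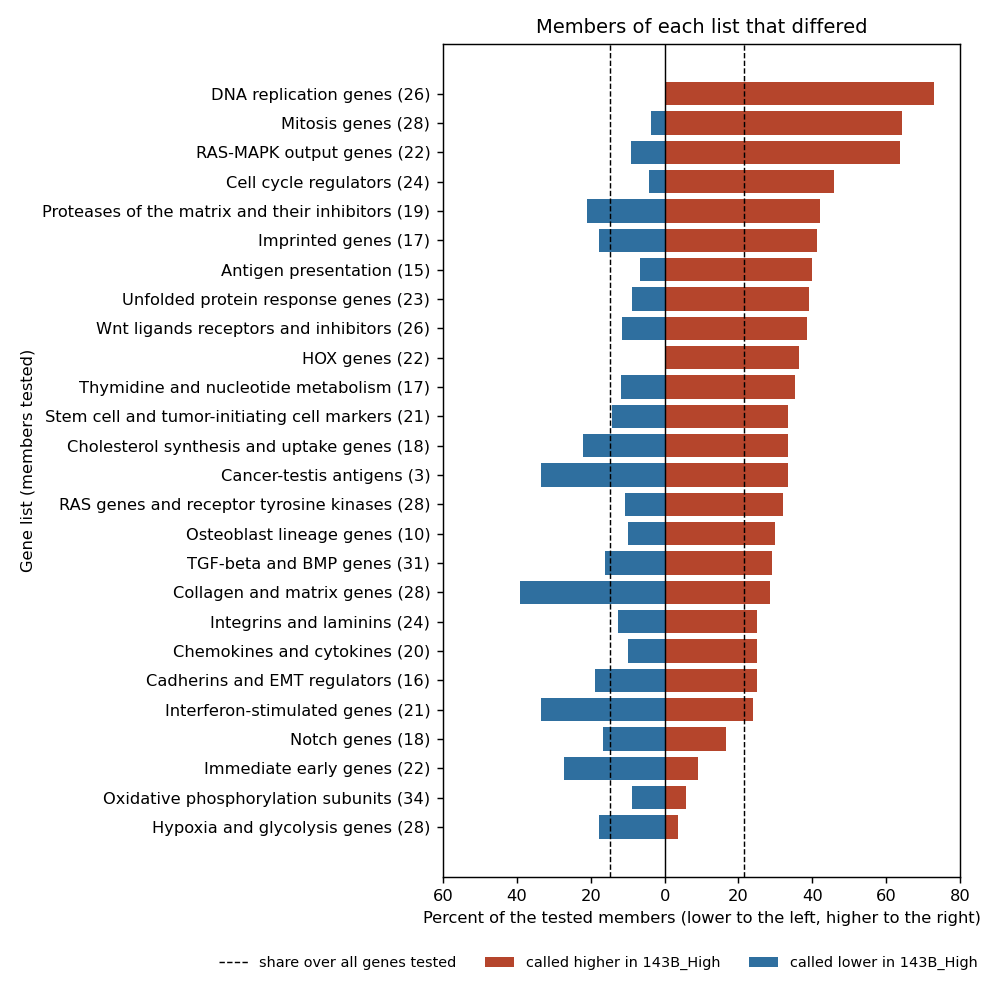
The bar chart of gene lists gives, for each of the 26 function lists (y axis, members tested in brackets), the percent of tested members called higher in 143B_High (to the right) and lower (to the left), with dashed lines at the shares over all genes tested, 21.4% and 14.7%. DNA replication, mitosis and RAS-MAPK output genes reach farthest to the right, and collagen and matrix genes farthest to the left.

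Few genes of energy metabolism were called higher. Over all genes tested 21.4% were higher and 14.7% lower. Of 34 oxidative phosphorylation subunits 2 were higher and 3 lower, none over 2-fold, and the median of 0.03 was -0.05 after the second quantile normalization. Their Low counts were 1 higher and 8 lower, against 14.4% and 14.5% of all genes tested in Low cells. NDUFV2 and SDHA were higher by 0.64 ± 0.14 and 0.51 ± 0.12, and NDUFS4 read 9.65, 9.77 and 9.73 against 10.40, 10.53, 10.51 and 10.55 (-0.78 ± 0.16). Of 28 hypoxia and glycolysis genes 1 was higher and 5 lower (3 without pool 54&55), and the median of 0.08 was -0.14 after the second quantile normalization. Of the 5 lower genes 3 were over 2-fold lower, as were 2.8% of all genes tested. The Low counts of this list were 1 higher and 9 lower. The higher gene was the vasodilator peptide ADM (1.21 ± 0.24). The oxygen sensor EGLN3 (-1.43 ± 0.24), the glucose transporter SLC2A3 (-1.07 ± 0.21) and NDRG1 (-1.07 ± 0.26) were lower. Cholesterol genes split into 6 higher and 4 lower of 18, with SC5D (2.08 ± 0.33) and DHCR7 (1.09 ± 0.17), late enzymes of the pathway, higher and EBP lower (-1.13 ± 0.25). After the second quantile normalization 2 cholesterol genes were higher and 5 lower.

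Unfolded protein response genes had 9 higher and 2 lower of 23, with a median of 0.50. There were 5 higher when the single tumor or MNNG-1231 was left out. The chaperone partner SDF2L1 read 9.17, 8.96 and 8.84 against 7.63, 8.32, 7.35 and 8.01 (1.17 ± 0.19), CHAC1 was higher by 0.88 ± 0.15, and CRELD2 was lower (-0.63 ± 0.12). The median was 0.24 without MNNG-1233. Without both MNNG-1231 and MNNG-1233 it was 0.11, with 4 higher. ATF3, a stress-induced transcription factor, was higher by 0.93 ± 0.15 in the probe set used, and 1 of its 3 probe sets was higher. Of 22 immediate early genes, which respond within minutes to stimuli that include tissue handling, 2 were higher and 6 lower, with a median of -0.29. The lower genes numbered 2 without pool 51&52, pool 54&55 or MNNG-1232, and 3 without MNNG-1233. The nuclear receptors NR4A2 and NR4A3 were lower (-1.26 ± 0.27 and -1.46 ± 0.36), and FOSL1 and ATF3 were the higher ones. Without MNNG-1231 and MNNG-1233 there were 2 of each, and NR4A3 was not among them (-1.12).

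Markers of other cell types were read in the same way, beside the shares over all genes tested (21.4% higher and 14.7% lower). Host cells are murine and would be seen by these human probes only through cross-hybridization. Of 9 tested macrophage and myeloid genes 5 were lower in 143B_High and none higher, with a median of -0.62, and CD163, TYROBP, C1QB, C1QC, LYZ, MRC1 and PTPRC lay under the median of the table on all 7 arrays. The summed signal of the list was 9.51 to 10.003 in 143B_High and 10.86 to 11.53 in MNNG_High on the log2 scale. LAPTM5, described above, was as high in MNNG_Low (10.12) as in MNNG_High. AIF1 was different: it read 8.83, 8.03 and 8.58 against 10.33, 9.67, 10.17 and 8.86 in High cells (-1.28 ± 0.29) and 7.24 against 7.42 on average in Low cells. Without MNNG-1231 and MNNG-1233 together only 1 member of the list was lower, and AIF1 was not called (-0.79). Without pool 51&52 or MNNG-1233 alone 3 members were lower. With the single tumor as the only 143B_High array the AIF1 difference was -0.93.

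Against 14.7% lower over all genes tested, muscle markers had 5 lower of 9, erythroid 2 of 5, neutrophil 2 of 2 and lymphocyte 1 of 4. None of these was over 2-fold, and no marker of these lists was higher. Their summed signals were 9.25 to 9.45 against 9.64 to 10.001 for muscle, 8.25 to 8.46 against 8.52 to 9.13 for erythroid, 7.38 to 7.56 against 7.66 to 8.24 for neutrophil and 8.12 to 8.22 against 8.14 to 8.72 for lymphocyte genes. The counts were 2, 1, 0 and 0 without MNNG-1231 and MNNG-1233. With any 1 of the 7 arrays left out, they were 3 to 5, 1 to 3, 1 to 2 and 0 to 1. CKM, MB and MYH1 were under the median of the table on all 7 arrays, as were MPO, ELANE, MS4A1 and CD3G. Of the 2 lower neutrophil genes, LTF had means of 4.47 in 143B_High and 5.04 in MNNG_High, both near background. CSF3R had 5.59 and 6.25, and its other probe set was not called (-0.46). Osteoclast genes had 1 higher and 1 lower of 3, and ATP6V0D2, a proton pump subunit, was the lower one (-1.48 ± 0.23). Endothelial genes had 1 higher of 5, which was TIE1, and epithelial genes 2 higher and 2 lower of 8, with the keratins KRT18 (1.17 ± 0.20) and KRT8 (-1.26 ± 0.26) in opposite directions. Adipocyte genes had 1 higher and 2 lower of 6, and none of either without MNNG-1231 and MNNG-1233. Of 10 osteosarcoma and mesenchymal genes 1 was higher (CDH2) and 6 were lower, among them S100A4, COL1A1 and RUNX2. Only 3 were lower when pool 51&52, pool 54&55 or MNNG-1233 was left out. The part of host or other cells in the differences between the lines was not tested.

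Most of the line difference was shared by both dye fractions. Low cells gave 4158 called genes (28.8%), and 2889 genes were called in both, 2888 of them in the same direction. That is 55.5% of the High calls and 69.5% of the Low calls. Of the 1639 genes over 2-fold in High cells, 1475 were called in the same direction in Low cells and 1634 had the same sign. By their titles the High and Low arrays of MNNG and of the single 143B tumor come from the same tumors, so these comparisons are not independent of each other. That the pools 51&52 and 54&55 join the tumors of 4 143B_Low arrays is read from the last digits of the tumor numbers and is not spelled out in the titles.

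A single gene passed the test of whether the line difference itself differed between High and Low cells (0.00694%), and 1449 genes had an unadjusted p under 0.05. That fit leaves out the tumor that High and Low arrays share. With the tumor as a random block, over the bone arrays, 11 genes passed, against 1 in the same arrays without the block, and they included CELF2, CDCA8, AURKA, CDKN3 and CDC25C. The block rests on the reading of the pools given above. CELF2, an RNA-binding regulator of splicing, read 10.19, 9.90 and 10.34 in 143B_High and 11.71, 10.74, 11.03 and 10.21 in MNNG_High, so the groups overlapped. In 143B_Low it was 9.20 to 9.86, and in MNNG_Low it was 7.90, 6.46, 7.19 and 6.80. The highest of these, MNNG-1231, is the only MNNG_Low array with the tag of the MNNG_High arrays, so tag and dye fraction cannot be told apart for the other 3. The difference was -0.78 ± 0.31 in High cells and 2.39 ± 0.27 in Low cells, and the difference between these was -3.16 ± 0.41 (adjusted p = 0.0061, limma). The 2 lung arrays had the highest CELF2 signal, 12.37 and 12.34. The median signal of the myeloid list was 5.82 to 6.34 in MNNG_High, 5.47 to 5.56 in MNNG_Low and 7.01 and 7.68 in the lung, and its part in the CELF2 signal was not tested. The call rests on the probe set and the arrays used: the 4 probe sets of CELF2 over background differed by -0.78 to 2.62 in High cells, the mean over probe sets gave -1.17, and without MNNG-1231 and MNNG-1233 the value was -2.72 (adjusted p = 0.0631, limma).

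**Figure D3:**
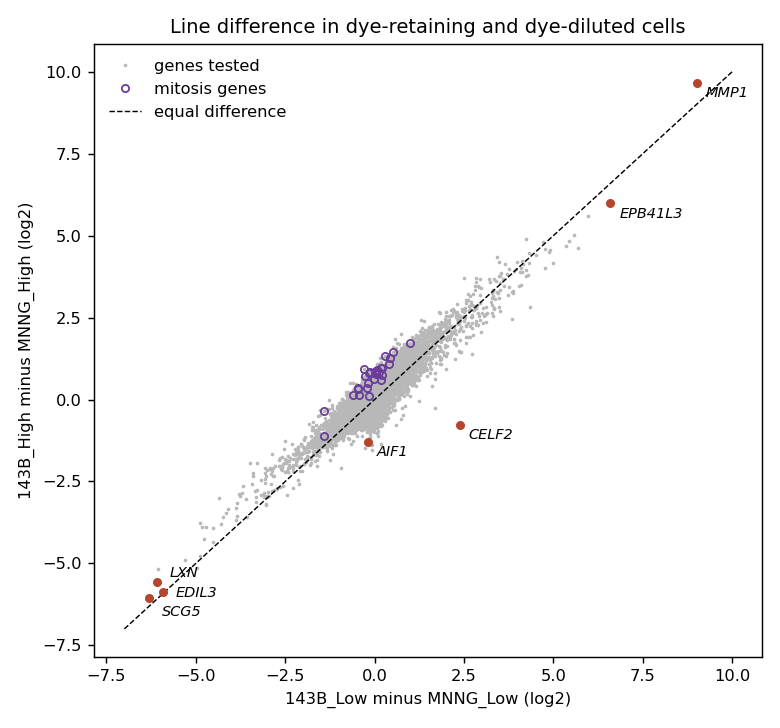
The scatter plot gives for each of the 14418 genes tested (grey points) the difference between the lines in Low cells (x axis, log2) and in High cells (y axis, log2), with mitosis genes as open circles, named genes as filled points and a dashed line where both are equal. MMP1, EPB41L3, LXN, EDIL3 and SCG5 lie near the line at its ends, and CELF2 lies apart at 2.39 and -0.78. The mitosis genes lie a median of 0.77 above the line, against a median of 0.15 for all genes tested.

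The called genes were not spread evenly over the chromosomes. On chromosome 18, 100 of 200 genes tested were higher in 143B_High and 12 lower (50% higher, against 21.4% of all genes tested). Chromosomes 3, 11 and 20 had 40.03%, 37.3% and 34.9% higher. Chromosomes 8 and 21 had 27.6% and 25% lower, against 14.7% of all genes tested, and chromosome 19 had the smallest share of higher genes, 8.82%. After the second quantile normalization 12.7% of all genes tested were higher and 14.2% lower. The shares of higher genes were then 33.0% on chromosome 18, 24.8% on 3, 21.9% on 11 and 21.2% on 20, and 26.4% and 18.9% were lower on 8 and 21. In Low cells the median difference was 0.29 on chromosome 18 and 0.18 on chromosome 3 (0.59 and 0.41 in High cells), and -0.17 and -0.25 on chromosomes 8 and 21 (-0.28 and -0.27 in High cells). DNA copy number was not analysed here.

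**Figure D4:**
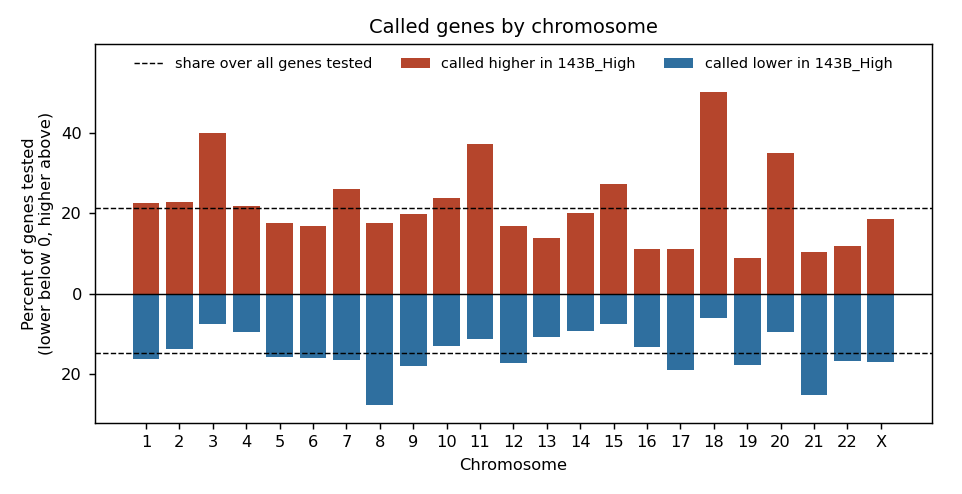
The bar chart of chromosomes gives the percent of genes tested on each chromosome (x axis) that were called higher in 143B_High (upward) and lower (downward), with dashed lines at the shares over all genes tested, 21.4% and 14.7%. Chromosomes 18, 3, 11 and 20 rise highest above the upper line, and chromosomes 8 and 21 fall farthest below the lower one.

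Neighbouring genes were then read in runs of 15 along each chromosome, in the order of the RefSeq gene table (GRCh38.p14), which placed 14380 genes in 14058 runs. The central 95% of run medians lay between -0.48 and 0.81. The runs described were chosen for the largest medians, so these values are a description with no test, and Low cells of the same tumors are given beside them. On chromosome 1 the run from BATF3 to RRP15 had a median of 1.71 in High and 1.05 in Low cells, with 13 of 15 genes called higher. RRP15, a ribosome biogenesis factor, read 9.12, 9.24 and 9.01 against 6.96, 6.88, 6.29 and 7.67 (2.18 ± 0.22), and RPS6KC1 was higher by 2.17 ± 0.20. NSL1 and SMYD2 in that run were higher by 2.10 ± 0.29 and 2.08 ± 0.15 in the probe set used. For each, 2 of 3 probe sets over background were higher, and the set read when _x_at and _s_at probe sets were left out did not pass the test (-0.21 and -0.41).

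Also on chromosome 1, the run from CD46 to NEK2 had a median of 1.70 in High and 1.36 in Low cells, with 13 of 15 higher. TRAF5, an adaptor of TNF receptors, read 8.63, 8.89 and 9.15 against 5.05, 5.88, 5.78 and 6.27 (3.15 ± 0.27), SERTAD4 was higher by 2.53 ± 0.19, and CD46, the complement regulator, by 1.94 ± 0.28. A further run on chromosome 1, from IGSF3 to PHGDH, had a median of 1.52 and 1.40, with 14 of 15 higher. PTGFRN, a membrane protein of the immunoglobulin superfamily, read 10.35, 10.23 and 10.07 against 5.84, 6.85, 7.24 and 6.19 (3.68 ± 0.33), and PHGDH, which commits glycolytic carbon to serine synthesis, read 11.65, 11.64 and 11.72 against 9.92, 9.68, 9.83 and 9.53 (1.93 ± 0.14). On chromosome 11 the run from TMEM9B to RNF141 had 14 of 15 higher, with a median of 1.50 and 0.96. NRIP3 led it at 10.77, 10.91 and 10.85 against 7.99, 8.22, 7.91 and 8.33 (2.73 ± 0.13), and AMPD3, an AMP deaminase, was higher by 2.16 ± 0.21.

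Of the lower runs the largest lay on chromosome 17, from MGAT5B to LGALS3BP, with a median of -1.15 in High and -1.45 in Low cells and 12 of 15 genes called lower. It holds TK1, BIRC5 and TIMP2, described above. SEPTIN9, a filament-forming GTPase, read 9.75, 9.60 and 9.61 against 12.13, 12.44, 12.47 and 12.32 (-2.69 ± 0.19, adjusted p = 1.03e-08, limma), SOCS3, an inhibitor of JAK-STAT signalling, was -1.41 ± 0.26, and LGALS3BP, a secreted galectin ligand, -1.87 ± 0.28. On chromosome 1 the run from HMCN1 to NEK7, which holds TPR, had a median of -0.80 (-1.19 in Low cells) with 10 lower, and DENND1B was -1.71 ± 0.27. The run from CDK6 to PDK4 on chromosome 7 had a median of -0.78 (-0.76 in Low cells) with 8 lower and 1 higher, led by GNG11 (-1.97 ± 0.22), and the run from PSKH2 to OTUD6B-AS1 on chromosome 8 had -0.74 (-0.83 in Low cells) with 10 lower, among them DECR1 (-1.36 ± 0.28). After the second quantile normalization and after aligning array medians, the medians were 1.23 to 1.78 for the higher and -1.33 to -0.67 for the lower runs. All 8 runs thus kept their sign, which is no support for them, since they were chosen for size on these same arrays.

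**Figure D5:**
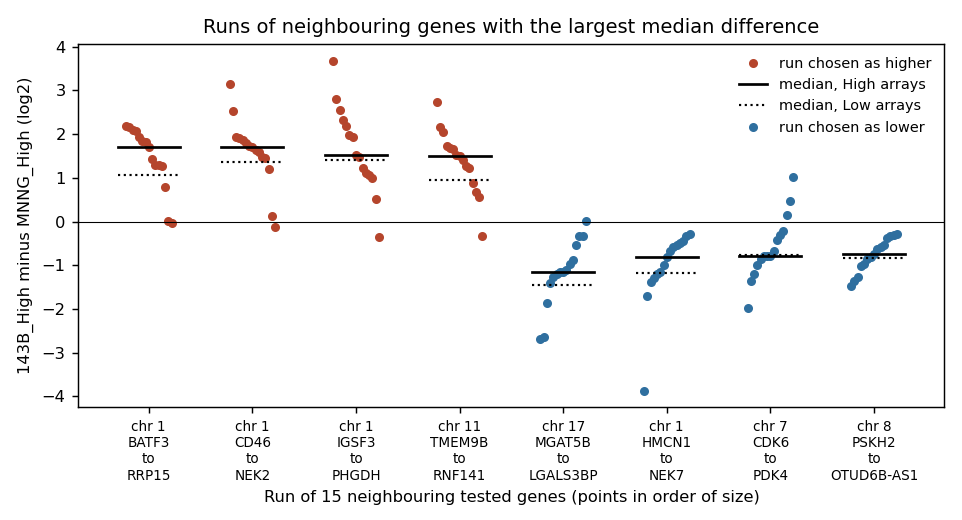
The plot of runs gives the difference between 143B_High and MNNG_High (y axis, log2) of each of the 15 genes in 8 runs of neighbouring genes (x axis, ordered by size within a run), with a solid bar at the run's median in High cells and a dotted bar at its median in Low cells. The 4 runs chosen as higher have 13 or 14 of 15 genes called higher, and the 4 chosen as lower have 8 to 12 called lower.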

How the data were processed

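Total RNA of sorted tumor cells was amplified, labelled with biotin and hybridized to Affymetrix human 3' expression arrays, per the labels' protocols. RMA, named in the submitters' processing notes, gave the log2 signals deposited by the authors. It corrects background, quantile-normalizes and summarises probes, which can hide a shift shared by most genes. Its version, and which arrays it joined, were not found in the labels. Of 54675 probe sets 41097 named 1 gene, 1801 several and 11777 none, and only the first kind was used. Each of 19775 genes was read from its probe set of highest mean, and 14418 genes reached the table median (5.36) on at least 3 arrays. Symbols were compared with RefSeq (GRCh38.p14) by Entrez ID: 19735 matched and 0 changed.

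R 4.3.3 with limma 3.58.1 was fitted to all 18 arrays with 5 group means, Benjamini-Hochberg adjustment over 14418 genes and a threshold of 0.05. Values a ± b are log2 differences with SE unless SD is given. The number of arrays limits the precision. The script was tested on simulated data. The 36 lists (26 of functions, 10 of markers), the comparison and the members were chosen with earlier results of these data known. Named genes were the 15 largest called differences in each direction with groups that did not overlap, up to 4 members of smallest p of each function list, genes of the lines' history, the 2 brightest members of each marker list and up to 5 genes of each run; others are marked in the text. Alternatives were second normalizations, filters, probe set rules, array weights, a tumor block, a covariate and arrays left out; leaving out MNNG-1231 and MNNG-1233 together was added after seeing the data.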

Additional observations from a re-analysis of the deposited data

Results flagged for a closer look

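The genes named and 4 array measures, 185 values together, were compared array by array within MNNG_High. Of these, 9 (4.86%), all genes, had 1 array far from the other 3, with a gap over 0.829 of the group's range. By chance about 1 in 20 would. In MNNG-1233, NPTX2 read 10.53 against 8.12 to 8.29 (gap 0.927 of the range), MYL11 7.65 against 6.64 to 6.80 (0.842) and SLC4A1 7.68 against 7.20 to 7.25 (0.901). In MNNG-1232, MEST read 10.44 against 9.66 to 9.74 (0.893) and AURKB 6.73 against 6.93 to 6.96 (0.883). In MNNG-1231, ATF3 read 9.91 against 10.33 to 10.41 (0.853) and NES 9.03 against 9.53 to 9.62 (0.850). In MNNG-1235, SOX2 read 8.45 against 7.02 to 7.17 (0.898) and EDIL3 12.14 against 12.01 to 12.03 (0.841).

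The difference of CELF2 between the lines was not the same in High and Low cells, by -3.16 on the log2 scale in the test of that difference itself, on the probe set used.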

How the results depend on the processing

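Leaving out 1 bone array at a time gave 3465 to 6297 High calls, 3445 to 4504 Low calls and 1 to 4 genes whose line difference depended on the dye fraction. The lung arrays were left out only together, which gave 6807 High and 5361 Low calls. High calls were 1579 with the single tumor as the only 143B_High array and 3305 without MNNG-1231 and MNNG-1233, and Low calls were 7024 with array weights. Genes whose line difference depended on the dye fraction numbered 234 with array weights, 11 with the tumor as a random replicate block, and 0 with the mean over probe sets (1379 at an unadjusted p under 0.05), without _x_at and _s_at sets (1126) and without MNNG-1231 and MNNG-1233 (707). No tumor number is shared between the lines, so pairing could enter only as that block (consensus correlation 0.229 over the bone arrays, with 6678 High calls), it rests on reading 51&52 and 54&55 as pools of the tumors of 4 143B_Low arrays, and it changed no other count of calls over all genes by over 1.5 times. For the genes named, 5240 alternatives kept direction and call, 115 lost and 17 gained the call, and 22 reversed. With the mean over probe sets PECAM1 was 0.0183, VIM 0.102, CELF2 0.316, SLC29A2 -0.133 and DLL3 -0.0130. Without _x_at and _s_at sets FN1 was 0.0983, NSL1 -0.212, SMYD2 -0.408 and SLC29A2 -0.261. With array weights PECAM1 was 0.0192, CDKN2A 0.00608 and HBB 0.130. Without MNNG-1231 and MNNG-1233 PECAM1 was 0.0454, CDKN2A 0.0398, HBB 0.157 and CD79A 0.192. VIM was 0.0107 with aligned medians and 0.0380 with the single tumor alone, where CD3D was 0.275; CD3D was 0.141 with the GAPDH covariate and 0.160 without pool 54&55, and CD79A was -0.303 to 0.0237 with 1 array left out, turning sign without MNNG-1233. The cause was not tested.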
